A study of Mus musculus with 2 samples.

Results

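The mir-181 family was examined in hippocampal tissue of young mice. Its members were the 6 annotated genes of that name, Mir181a-1, Mir181b-1, Mir181a-2, Mir181b-2, Mir181c and Mir181d, which lie as pairs at 3 loci. They were found by symbol among the 2202 microRNA genes counted, and all 6 were present. MicroRNA-seq, the sequencing of RNA below 30 nt, was performed on total RNA of tissue labelled layer of hippocampus. The donors were B6CASTF1/J females aged 10 days. B6CASTF1/J animals are first-generation hybrids of the inbred C57BL/6J and CAST strains, and no treatment is named in the labels. The 2 biological replicates form 1 group. Their labels list different animals, 3 females each, under 1 donor entry. No conditions could be compared, so the levels of the members, their order and their spread between the 2 libraries were measured.

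MicroRNAs of this family are cut from hairpins in a longer primary transcript. Each hairpin gives a 5p and a 3p arm, and the arm that is kept guides the silencing complex to messenger RNAs through its seed, bases 2 to 8. The family is known for setting the sensitivity of antigen receptor signalling in developing T cells, and in hippocampal neurons miR-181a is known to lower the AMPA receptor subunit GluA2 at synapses.

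The 5p arms are shown because they define the family and because identical arms from different loci limit what can be counted. The sequences are those of RefSeq on GRCm38.p6, written 5′ to 3′, with the seed in capitals. The 6 genes carry 4 distinct 5p arms.
mmu-miR-181a-5p, of Mir181a-1 and Mir181a-2: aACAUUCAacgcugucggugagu
mmu-miR-181b-5p, of Mir181b-1 and Mir181b-2: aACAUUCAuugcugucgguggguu
mmu-miR-181c-5p, of Mir181c: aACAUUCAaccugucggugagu
mmu-miR-181d-5p, of Mir181d: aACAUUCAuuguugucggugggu
All 4 share the seed ACAUUCA. Among 1738 mature microRNAs of mouse in RefSeq, no arm of a gene outside the family had this seed. Counted from 1 at the 5′ end, miR-181b-5p differed from miR-181a-5p by A9U, C10U and A21G over their first 23 bases, and miR-181d-5p differed from miR-181b-5p by C12U alone. Deletion of the base at position 11 turned miR-181a-5p into miR-181c-5p. All of these differences lie outside the seed.

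The 3p arms are shown because each is distinct, and none occurs exactly in another microRNA gene. With 1 mismatch allowed, the 3p arm of Mir181b-1 also matched Mir181b-2, and the mismatches allowed in placing the reads are not known.
mmu-miR-181a-1-3p: aCCAUCGAccguugauuguacc
mmu-miR-181a-2-3p: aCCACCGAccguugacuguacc
mmu-miR-181b-1-3p: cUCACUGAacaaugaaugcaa
mmu-miR-181b-2-3p: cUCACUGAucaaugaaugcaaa
mmu-miR-181c-3p: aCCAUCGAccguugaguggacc
mmu-miR-181d-3p: cCCACCGGgggaugaauguca
The 3p arms have 4 seeds. Mir181a-1 and Mir181c share CCAUCGA, Mir181b-1 and Mir181b-2 share UCACUGA, and Mir181a-2 and Mir181d each have their own. The 3p arm of Mir181a-1 differed from that of Mir181a-2 by U5C and U16C and from that of Mir181c by U16G and U19G. The 3p arms of Mir181b-1 and Mir181b-2 differed by A9U over their first 21 bases.

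Reads that match several places have a row of their own in the files, and the count columns of a library, this row included, sum to the same total, so such a read is in no gene count. Of the 12 arms of the 6 genes, 4 also occur exactly in another microRNA gene, namely the 5p arms of both Mir181a copies and both Mir181b copies. The identical stretch runs beyond the arm, as the hairpins show when the first 2 bases after it are set in capitals.
Mir181a-1: gaacauucaacgcugucggugaguuuggAA
Mir181a-2: gaacauucaacgcugucggugaguuuggGA
Mir181b-1: ucaacauucauugcugucgguggguuGA
Mir181b-2: ucaacauucauugcugucgguggguuUG
The Mir181a copies share 28 nt, from 1 base before the arm to 4 bases after it, so a read that starts with the arm differs between the loci only at the fifth base after the arm. The Mir181b copies share 26 nt, which end with the last base of the arm, so the first base after the arm already differs. No stretch of 22 nt or of 18 nt in Mir181c or Mir181d occurs in another microRNA gene. The gene counts do not say which arm a read came from, so the share of 5p and 3p reads was not determined for any member.

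**Figure D1:**
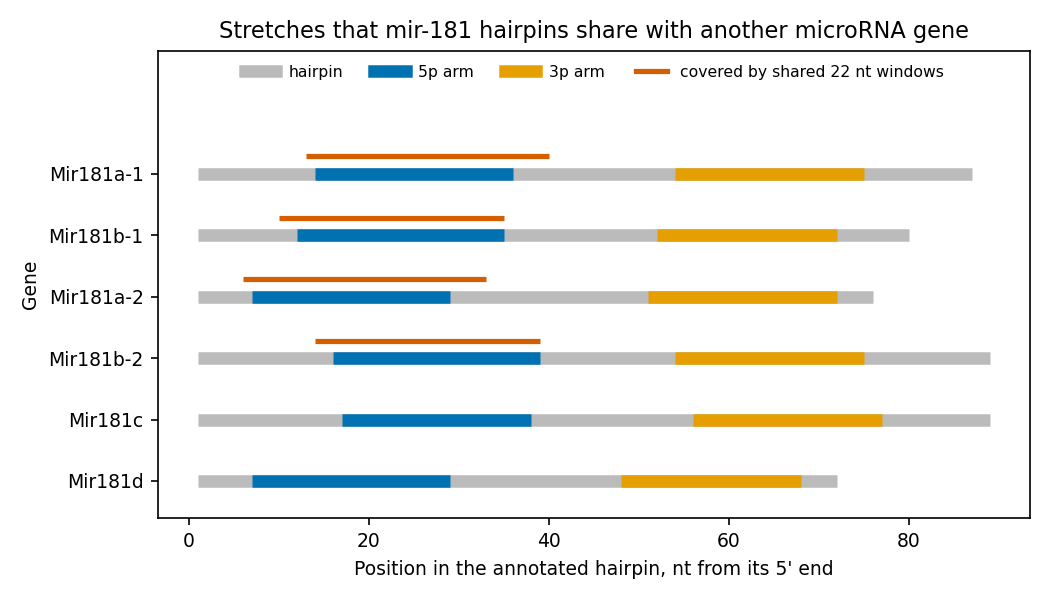
Each grey bar is an annotated hairpin, drawn to scale along the horizontal axis in nt from its 5′ end, with the 5p arm in blue and the 3p arm in yellow. The orange line marks the bases covered by 22 nt windows that also occur in another microRNA gene; it covers the 5p arm of the 4 numbered copies and is missing from Mir181c and Mir181d.

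The loci differ in spacing and in what is annotated around them (GENCODE M21, GRCm38). Mir181a-1 (ENSMUSG00000065565.1, chromosome 1, 137966455 to 137966541, plus strand) and Mir181b-1 (ENSMUSG00000065458.1, 137966639 to 137966718) lie 97 bases apart in an intron of the non-coding gene Gm4258. Mir181b-1 also lies wholly in an exon of A430106G13Rik, a long non-coding gene that covers the last 11 bases of Mir181a-1, and the long non-coding gene Gm26936 runs on the opposite strand. Mir181a-2 (ENSMUSG00000065423.1, chromosome 2, 38852735 to 38852810, plus strand) and Mir181b-2 (ENSMUSG00000065578.1, 38853830 to 38853918) lie 1019 bases apart, opposite to an intron of Nr6a1, which encodes an orphan nuclear receptor. Mir181b-2 lies in addition opposite to an exon of Gm44144, a transcript of unclear status. Mir181c (ENSMUSG00000065483.2, chromosome 8, 84178873 to 84178961, minus strand) and Mir181d (ENSMUSG00000076338.1, 84178716 to 84178787) lie 85 bases apart in an intron of Nanos3, an RNA-binding protein of germ cells, on the same strand. No other microRNA gene overlaps a member, and the opposite-strand count of each of the 6 genes was 0 in both libraries, which allows up to 3 counts, or 0.548 CPM in replicate 1 and 0.842 CPM in replicate 2. CPM are counts per 1000000 sense-strand counts on microRNA genes.

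The libraries held 5479267 and 3563226 sense counts on microRNA genes in replicates 1 and 2, out of 15058588 and 9483409 reads. Reads that matched several places made up 43.2% and 39.3% of all reads. The tissue label was checked against marker microRNAs. Of 10 neuronal markers 8 were detected, which meant a minimum of 10 counts in both libraries. The summed level of the list was 26988 and 29709 CPM, led by Mir132, Mir128-1 and Mir138-1. Mir124a-2 and Mir124a-3 were not detected, and Mir124a-1, with 10 and 20 counts, stood at 1.83 and 5.61 CPM. Marker levels, like those of the members, cover assigned reads only. Mir128-1 and Mir138-1 each share a mature arm with another gene, and reads within such an arm are assigned to neither gene. Whether the Mir124a copies lose reads in this way was not tested, so their counts do not give their output. All 3 oligodendrocyte markers were detected, at a sum of 1563 and 2041 CPM. The 5 lymphoid and myeloid markers, of cells known to express mir-181, were also all detected, with a sum of 1936 and 1964 CPM. Most of this sum was Mir146 at 950 ± 168 CPM (SD, n = 2) and Mir150 at 858 ± 183 CPM. The others were lower, with Mir155 at a mean of 87.8 CPM, Mir142 at 38.6 CPM and Mir223 at 15.2 CPM. Erythroid markers summed to 55.5 and 64.3 CPM, and the liver marker Mir122 stood at 34.7 and 34.2 CPM. Muscle markers summed to 43.6 and 102 CPM, mostly Mir206, and 4 of 7 were at 0 in both libraries. The part of immune cells in the mir-181 levels was not tested.

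Together the 6 genes held 70596 of the sense counts in replicate 1 and 47059 in replicate 2, or 1.29% and 1.32%. The mean was 1.30% ± 0.0228 (SD, n = 2). The exact Clopper-Pearson 95% intervals, which cover counting error only, were 1.28% to 1.30% and 1.31% to 1.33%. The libraries thus differed by more than counting error and by a small amount. When genes were grouped by microRNA number, the summed level of mir-181, 13046 ± 228 CPM (SD, n = 2), ranked 16 by mean among 932 numbers, 17 in replicate 1 and 14 in replicate 2. Of the 932 numbers, 634 had any sense counts. The counts assigned to the family equal 1.08% and 1.26% of the number of reads that matched several places. How many of those reads came from the identical 5p arms is not known, so the family's total is that of assigned reads.

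All 6 genes were detected, and the mean level of the highest was 108 times that of the lowest. These levels are those of assigned reads. Reads within the stretch that the numbered copies share are in no gene count, whereas Mir181c and Mir181d have no such stretch. The order and the ratios below are therefore those of assigned counts and do not give the order of the genes in output. Mir181d and Mir181b-2 were highest. Mir181d had 26378 and 15495 counts in replicates 1 and 2, or 4814 and 4349 CPM, a mean of 4581 ± 329 CPM (SD, n = 2). Mir181b-2 had 23021 and 16668 counts, or 4201 and 4678 CPM, a mean of 4440 ± 337 CPM. Their ranges overlapped and their order switched, with Mir181d higher in replicate 1 and Mir181b-2 higher in replicate 2.

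Mir181c followed with 16144 and 11418 counts, or 2946 and 3204 CPM, a mean of 3075 ± 182 CPM (SD, n = 2). It was below Mir181b-2 in both libraries, which held 1.43 and 1.46 times as many counts. Mir181a-1 had 4445 and 3131 counts, or 811 and 879 CPM, a mean of 845 ± 47.7 CPM. Mir181c held 3.63 times as many counts as Mir181a-1 in replicate 1 and 3.65 times in replicate 2, so this ratio hardly differed between the libraries.

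Lowest were the partners of the more abundant genes at the numbered loci. Mir181a-2 had 405 and 176 counts, or 73.9 and 49.4 CPM, a mean of 61.7 ± 17.3 CPM (SD, n = 2). Mir181b-1 had 203 and 171 counts, or 37.0 and 48.0 CPM, a mean of 42.5 ± 7.74 CPM. The difference of these means, 19.1 CPM, was smaller than the sum of their SDs, 25.1 CPM, so their order was not resolved. In replicate 2 the share of Mir181a-2 in their joint counts was 50.7% (exact Clopper-Pearson 95% interval 45.3% to 56.1%), against 66.6% (62.7% to 70.4%) in replicate 1.

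With 2 values against 2, a two-sided exact permutation test cannot go below p = 0.333, so no test was run between members. Reads of a microRNA cover an arm and not the whole hairpin, so CPM were not divided by length in these comparisons. Per 100 nt of hairpin the order by mean was the same, and Mir181d, at 6686 and 6040 CPM per 100 nt, was then above Mir181b-2, at 4721 and 5256, in both libraries. By mean CPM over all genes Mir181d ranked 41, Mir181b-2 42, Mir181c 62, Mir181a-1 124, Mir181a-2 234 and Mir181b-1 252.

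**Figure D2:**
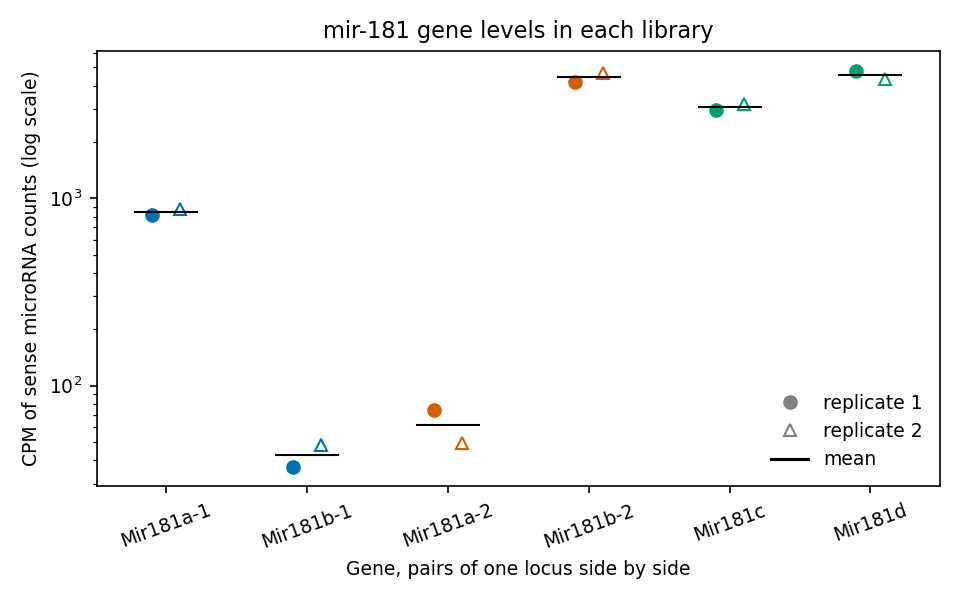
Level of each gene in CPM of sense microRNA counts, on a log axis, with filled circles for replicate 1, open triangles for replicate 2 and a line at the mean of both; colours mark the 3 loci. Mir181d, Mir181b-2 and Mir181c lie between 2946 and 4814 CPM, Mir181a-1 lies near 845 CPM, and Mir181a-2 and Mir181b-1 lie below 74 CPM.

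By locus, the pair c/d held the largest part of the family's assigned counts. Its share was 60.2% in replicate 1 and 57.2% in replicate 2, a mean of 58.7% ± 2.15 (SD, n = 2). The pair a-2/b-2 held 33.2% and 35.8%, a mean of 34.5% ± 1.85. The pair a-1/b-1 held 6.58% and 7.02%, a mean of 6.80% ± 0.306. The order of the 3 loci was the same in both libraries. These shares compare counts that lose different parts to identical arms, since only c/d has 5p arms that occur in no other microRNA gene, so they do not give the order of the loci in transcription.

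Within each locus the partners were unequal in assigned counts, and at the numbered loci in opposite directions. At a-1/b-1, the a member held 95.6% of the pair's counts in replicate 1 and 94.8% in replicate 2, a mean of 95.2% ± 0.574 (SD, n = 2). At a-2/b-2, the a member held 1.73% and 1.04%, a mean of 1.39% ± 0.484. The stretch shared between copies ends 4 bases after the arm in Mir181a and with the last base of the arm in Mir181b. Partners at the numbered loci may thus lose unlike parts of their reads, so these shares do not give the balance of their output. At c/d, Mir181c held 38.0% (exact Clopper-Pearson 95% interval 37.5% to 38.4%) and 42.4% (41.8% to 43.0%), so Mir181d was the higher partner in both libraries. The c/d balance differed between the libraries by more than counting error.

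**Figure D3:**
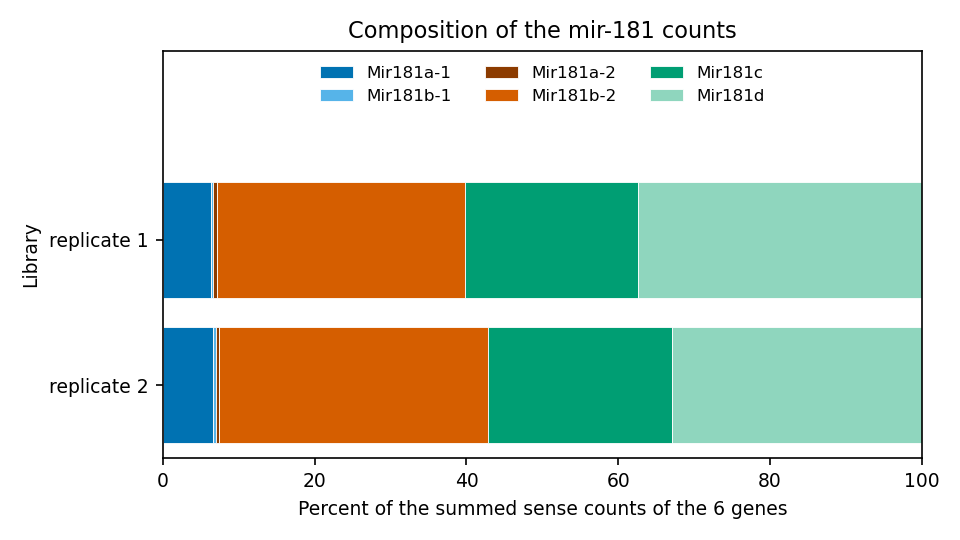
Each bar splits the summed sense counts of the 6 genes in a library, in percent, with neighbouring shades of 1 colour for the partners of a locus. Mir181d and Mir181c fill 60.2% of the bar of replicate 1 and 57.2% of that of replicate 2, Mir181b-2 fills most of the rest, and Mir181b-1 and Mir181a-2 appear as thin lines.

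The 2 copies of a microRNA were also unequal when compared across loci. Mir181a-1 had 11.0 and 17.8 times the counts of Mir181a-2 in replicates 1 and 2. Mir181b-2 had 113 and 97.5 times the counts of Mir181b-1. These copies share their 5p arm, and the ratios hold only for reads with a unique place, such as 3p reads and reads that run past the shared stretch shown above.

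To see how common such ratios were, all pairs of microRNA genes were collected in which a mature arm of a gene occurs in 1 other gene only, with at least 20 counts per pair in each library. Of 24 such pairs, the median share of the higher gene was 82.4% and the lowest 54.3%, and in 2 pairs every count lay on 1 gene. The Mir181b pair, at 99.1% ± 0.100 (SD, n = 2), ranked 4, and the Mir181a pair, at 93.2%, ranked 9. Next to the Mir181b pair stood Mir194-1 and Mir194-2 above it, at 99.3%, and Mir92-1 and Mir92-2 below it, at 98.4%; these 2 pairs were named after their values were seen. Of 385 detected genes with an arm in RefSeq, 49 shared an arm with another gene, the 4 numbered mir-181 genes among them, and the median level was 65.4 CPM in these and 111 CPM in the 336 others. Of the members that share an arm, Mir181b-2 and Mir181a-1 stood above the median of their class and Mir181a-2 and Mir181b-1 below it. Mir181c and Mir181d stood above the median of theirs.

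**Figure D4:**
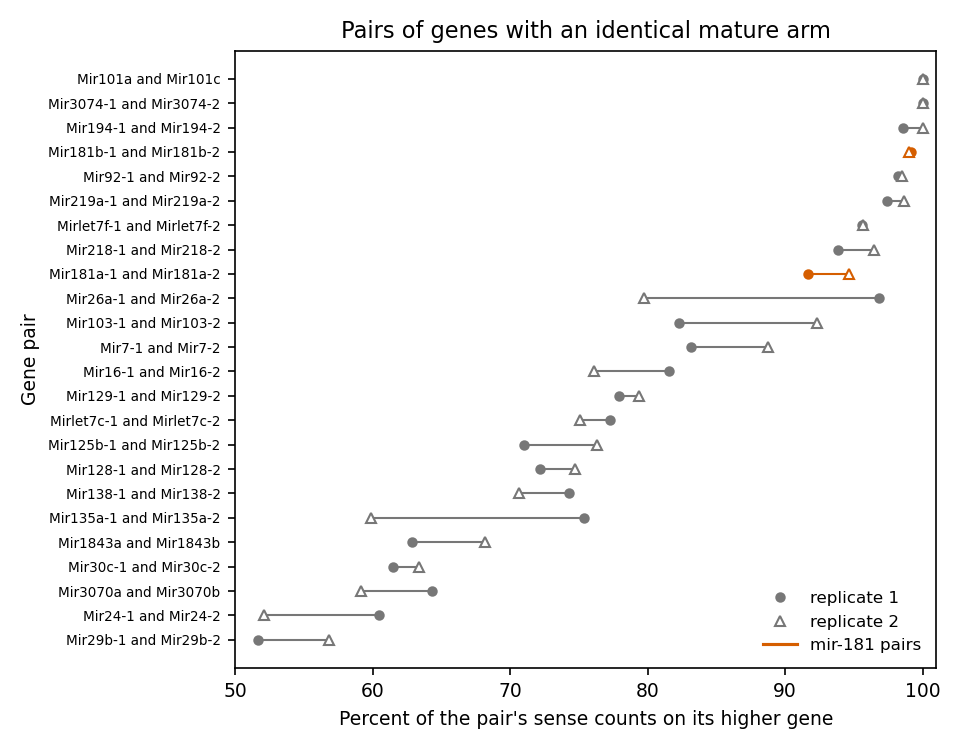
Each row is a pair of microRNA genes with an identical mature arm, and the horizontal axis, which starts at 50%, gives the percent of the pair's sense counts that lay on its higher gene, with circles for replicate 1 and triangles for replicate 2. The 2 mir-181 pairs, in orange, lie at 99.1% and 93.2% on average, in the upper part of the 24 pairs.

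Between the libraries the 4 most abundant members differed little. Of all 429 detected genes, 263 (61.3%) differed beyond counting error by a two-sided exact binomial test with Benjamini-Hochberg adjustment at 0.05, a test that compares 2 libraries and not conditions. Of the 6 mir-181 genes, 4 did, 2 of them higher in replicate 2 (28.7% of all genes were) and 2 lower (32.6%). The number called among the members was near this background. The size of the members' log2 ratios, replicate 2 over replicate 1, had a median of 0.15, against 0.33 for all detected genes, and 5 of 6 were below that median. No comparison with genes of like level was made. The biological coefficient of variation of all detected genes was 0.311, estimated by edgeR without a group difference.

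Mir181d was lower in replicate 2, at -0.21 on the log2 scale (adjusted p = 2.97e-46 by the exact binomial test), and Mir181b-2 was higher, at 0.09 (adjusted p = 8.94e-10). Mir181c was higher by 0.06 on the log2 scale (adjusted p = 0.00174), a call that was lost with DESeq2 size factors (adjusted p = 0.519). The partners Mir181c and Mir181d, which lie in the same intron, had ratios of opposite sign. Mir181a-2 had the largest ratio of the family, at -0.64 (adjusted p = 1.14e-06), which was larger than that of 73.0% of detected genes or equal to it. Its partner Mir181b-2 had a ratio of opposite sign. The ratios of Mir181a-1, 0.05 (adjusted p = 0.169), and Mir181b-1, 0.31 (adjusted p = 0.0636), did not pass the test. With library totals in place of TMM factors, the scaling of edgeR, both passed it (adjusted p = 0.00132 and 0.0226).

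**Figure D5:**
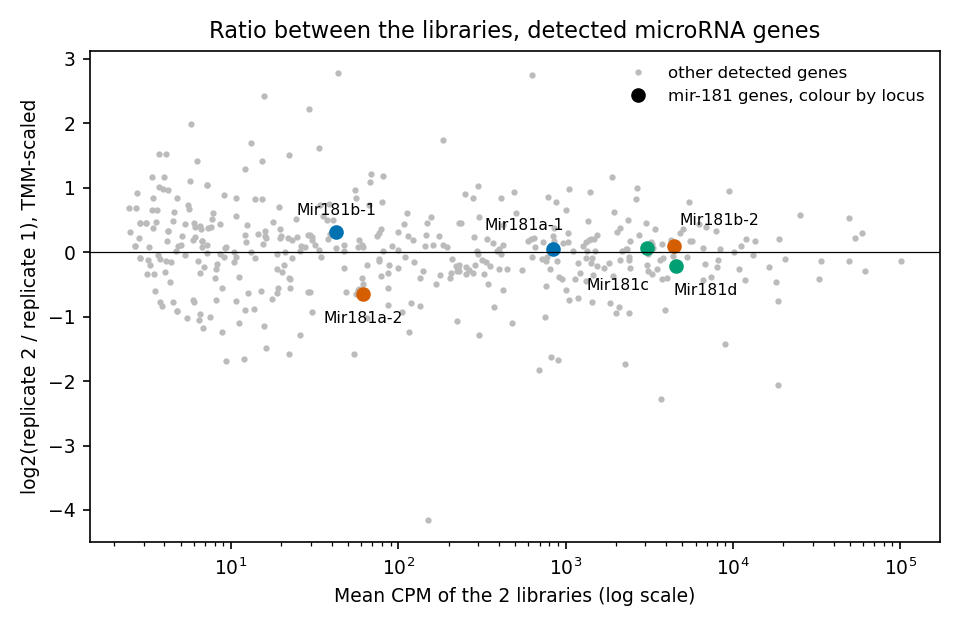
Each grey point is a detected microRNA gene, with its mean CPM on a log axis and its log2 ratio of replicate 2 to replicate 1 after TMM scaling, and coloured points are the 6 mir-181 genes. The 4 most abundant members lie between -0.21 and 0.09, close to the zero line, while Mir181b-1 and Mir181a-2 lie at 0.31 and -0.64.

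With 2 libraries no likeness of pattern could be measured, so the genes nearest in mean level are given instead. Mir181d lay just below Mir221, a microRNA of vessels and proliferating cells, at 4822 ± 853 CPM (SD, n = 2), and Mir181b-2 just above Mir361 at 4385 ± 13.3 CPM. Mir181c lay between Mir143, of smooth muscle, at 3082 ± 196 CPM and Mir434, of the imprinted Dlk1-Dio3 region, at 3024 ± 761 CPM. Mir181a-1 lay between Mir20a, of the mir-17-92 cluster, at 848 ± 99.4 CPM and Mir1249 at 842 ± 129 CPM. Mir181a-2 lay between Mir5099 at 61.7 ± 13.1 CPM and Mir148a at 61.2 ± 4.28 CPM, and Mir181b-1 between Mir670 at 43.4 ± 6.90 CPM and Mir3078 at 42.2 ± 2.64 CPM. Each member's gap to these neighbours was smaller than the larger of the SDs.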

How the data were processed

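The authors deposited raw counts of reads for each microRNA gene, 1 table a library, without pooling replicates. Per the deposited file notes, reads were placed on mm10 and genes taken from GENCODE M21. No aligner, counter or read filter is named in the sources used here. Of the 2 stranded count columns, the one with the larger total over genes was used as sense counts. The 4 rows without a gene were left out of library sizes. All 2202 gene identifiers matched GENCODE M21.

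Detection meant at least 10 counts in each library. Ratios add 0.5 counts and use TMM factors (0.979 and 1.02). Tools were edgeR 4.0.16, DESeq2 1.42.0, scipy 1.17.1 and RNAfold 2.7.2. The exact binomial test was tested on simulated data. The simulated counts held counting error and planted changes only, so this could not show how the test behaves with the spread of these libraries. Mature arms came from RefSeq (GRCm38.p6). Arms and stretches of 22 nt were searched in the GENCODE M21 transcripts of all microRNA genes, both strands, or the sense strand for the pairs of other genes; the genome was not searched. At these depths the difference between libraries exceeded counting error for Mir181d and Mir181b-2 under each scaling. For Mir181c and Mir181a-1 this depended on the scaling.

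Members and lists were chosen with earlier results of these data known. Named genes are the members, the gene just above and just below each by mean CPM, any gene sharing the 5p seed, genes opposite a member, and up to 3 genes per marker list. The Mir124a copies, Mir142 and Mir223, all of the marker lists, were named after their values were seen. The p-values measure departure from counting error between these 2 libraries and do not measure biological spread. Alternatives covered the strand, the denominator, the scaling, the count minimum, added counts, each replicate left out, a window of 18 nt, 1 mismatch and, added after seeing the data, the hairpin length.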

Additional observations from a re-analysis of the deposited data

How the results depend on the processing

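All 6 members stayed detected at minimums of 1, 5 and 100 counts, though minimums under the main one of 10 cannot lose a member. The family's share depended on the denominator. It was 1.39% of counts made without regard to strand, 0.483% of all reads and 2.55% of sense counts without the 10 most abundant other genes. Without a replicate it ran from 1.29% to 1.32%. The 9 alternatives for the locus shares and the 9 for the partner shares stayed within 1 SD of the mean, which leaving out 1 of 2 libraries cannot exceed. Counts without regard to strand gave identical shares, since the members had no opposite-strand counts. These alternatives therefore could not test the stability of the shares. Of 36 alternatives for single levels, 14 moved by over 1 SD, and 12 of these used all reads or left out the 10 genes. The coefficient of variation was 0.277 at a minimum of 100 counts and 0.312 with library totals; the cause was not tested. With up to 1 mismatch allowed, 6 of 12 arms occurred in another gene, as the 5p arm of Mir181d then matched both Mir181b copies and the 3p arm of Mir181b-1 matched Mir181b-2. Of 24 alternatives for the ratios, 3 changed a call and none a direction. Those with 5 added counts alter the ratio and not the test, so they could not change a call. The genes differing between libraries ran from 220 of 267 tested at a minimum of 100 counts to 286 of 670 at a minimum of 1, so the background share depends on the minimum. With library totals 137 were higher in replicate 2 and 123 lower, against 123 and 140 with TMM factors. No paired analysis was possible because the series has a single group. Depth limits Mir181b-1 and Mir181a-2, and reads with several places limit all 4 numbered copies.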

Other observations

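The hairpins were folded with RNAfold, with no comparison planned. Mir181c had the lowest predicted folding energy, -45.6 kcal/mol, and the highest GC content, 58.4%. Mir181b-2 followed at -33.2 kcal/mol and Mir181b-1 at -31.9, with a GC content of 44.9% and 45.0%. Mir181a-1 stood at -29.1 kcal/mol, Mir181a-2 at -28.8 and Mir181d, the shortest hairpin at 72 nt, at -27.1. The GC content was 42.5% in Mir181a-1, 46.1% in Mir181a-2 and 51.4% in Mir181d. These energies are totals over hairpins of different length, and their relation to the levels was not tested.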
